A study of Mus musculus with 3 samples.

Results

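The miR-10 and miR-196 miRNAs are made from hairpins inside the Hox gene clusters, and their mature 5p strands were followed in the mouse heart at 3 ages after birth. The members were the table entries with the miRBase accessions MIMAT0000648 (miR-10a-5p), MIMAT0000208 (miR-10b-5p), MIMAT0000518 (miR-196a-5p) and MIMAT0001081 (miR-196b-5p), which are 4 of the 1900 mature accessions counted. Small RNA was sequenced from hearts of wild-type C57BL/6 mice on postnatal day 1 (P1), day 7 (P7) and day 28 (P28). Each age had 1 library, and hence the variation among hearts is unknown. The study states that the sequencing used cardiac ventricles, where the labels say heart, and that mice of both sexes entered its experiments. The sex behind each library and the number of hearts in it were not given in the sources used here. The counts summed to 1944237 for the P1 library, 2465680 for the P7 library and 2842526 for the P28 library. These sums are column totals, in which a read may be counted under more than 1 entry. Levels are given as reads per 1000000 counted (CPM). All intervals below cover counting error only.

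Hox genes encode homeodomain transcription factors that set position along the body axis, and the miRNAs within their clusters are conserved along with them. A miRNA guides the silencing complex to messenger RNAs chiefly through its seed, the bases near its 5′ end, and strands with one seed share most of their targets. The miR-10 members are known from vascular endothelium, where they act in vessel growth and in inflammatory signalling. The miR-196 members are known from the posterior trunk and the hindlimb, where they restrain Hox genes.

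The sequences of the 4 members show why they were treated as a pair of families. They were taken from RefSeq (GRCm38.p6), where all 4 names matched, and the capitals mark the seed, which is bases 2 to 8.
miR-10a-5p: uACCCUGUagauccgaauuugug
miR-10b-5p: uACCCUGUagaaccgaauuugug
miR-196a-5p: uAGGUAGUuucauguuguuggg
miR-196b-5p: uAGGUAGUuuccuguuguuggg
Both miR-10 strands are 23 bases long and differ by 1 substitution, U12A, with miR-10a-5p as the first sequence and positions counted from the 5′ end. Both miR-196 strands are 22 bases long and differ by A12C, with miR-196a-5p as the first. Each difference lies outside the seed, so the members of a family share their seed. Among 1679 mature miRNA names in the RefSeq table, 2 have the miR-10 seed and 2 have the miR-196 seed, and these are the members themselves. Since 1 base separates the members of a family, a read with an error at that base, or too short to hold it, could be placed on the wrong one. How such reads were assigned was not given in the sources used here, and the effect on the counts was not tested.

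Some relatives outside the families are shown because they resemble the members without sharing a seed. The first 2 were taken from a preset list and not from a search, and let-7a-5p was not on that list. In the first 2, the capitals mark the longest run shared with a miR-10 member, and in the last the run shared with both miR-196 members.
miR-100-5p: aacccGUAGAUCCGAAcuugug
miR-99b-5p: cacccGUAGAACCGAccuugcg
let-7a-5p: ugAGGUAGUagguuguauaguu
The run in miR-100-5p is 11 bases long and belongs to miR-10a-5p, whereas the run in miR-99b-5p is 10 bases long and belongs to miR-10b-5p. A run of 10 bases is also shared by miR-10a-5p and miR-99a-5p, which is not shown. The run in let-7a-5p is the whole miR-196 seed, displaced by 1 base, so that let-7 has the seed GAGGUAG in place of AGGUAGU. In all, 10 mature names hold these letters at another place in bases 1 to 10, let-7a-5p among them. Expression values for these relatives were not analysed here, as no source used here paired accessions other than those of the members with names.

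The 4 members come from 5 hairpins on 4 chromosomes, 1 for each Hox cluster. Mir10a lies at chr11:96317165-96317274 on the plus strand (GRCm38.p6), within the span of Hoxb3 in RefSeq and 993 bases before Hoxb4, while GENCODE M21 lists no other gene over it. Mir10b lies at chr2:74726070-74726137 on the plus strand, in an intron of both Hoxd4 and Hoxd3 in GENCODE M21. The strand miR-196a-5p has 2 hairpins. Mir196a-1 is at chr11:96265164-96265265 on the plus strand, 6065 bases before Hoxb9. Mir196a-2 is at chr15:102973350-102973434 on the plus strand, between Hoxc10 and Hoxc9, in an intron of a long Hoxc5 gene model of GENCODE M21. Mir196b is at chr6:52230081-52230165 on the minus strand, 1032 bases from Hoxa10, and overlaps an exon of a Hoxa9 gene model of GENCODE M21. The table had 2 rows for miR-196a-5p, as many as its hairpins, and 1 row for each of the other members. The rows of an accession were added.

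**Figure D1:**
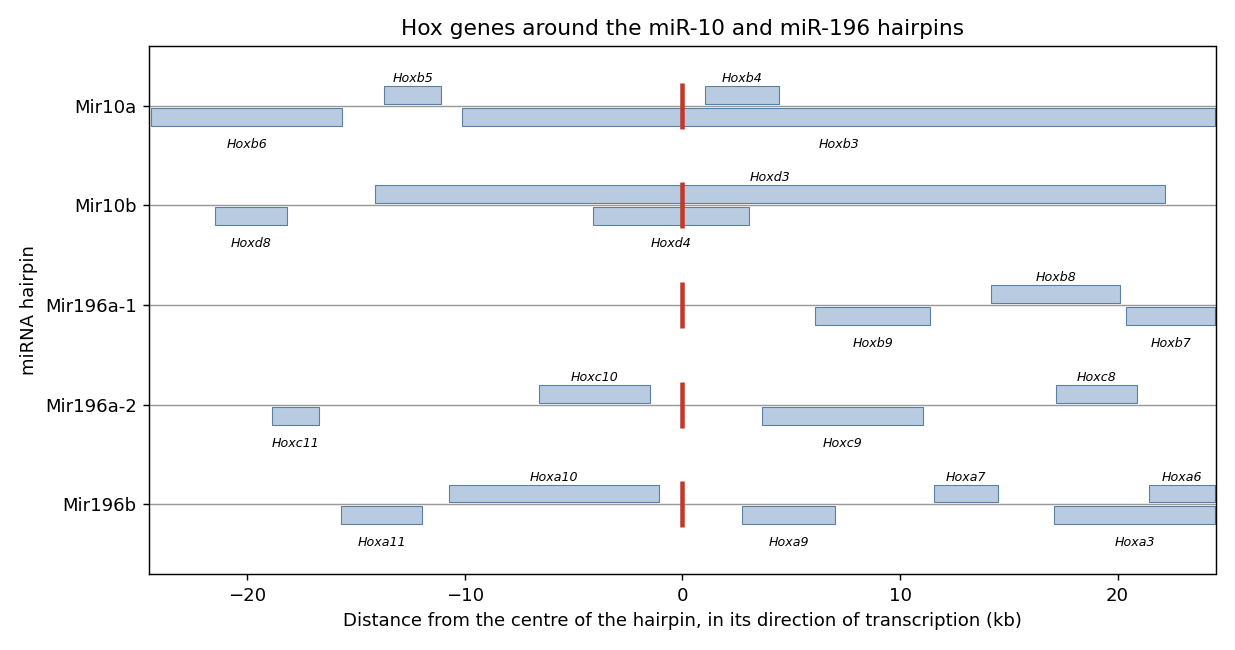
Hox genes (blue boxes, RefSeq gene spans) around each of the 5 hairpins (red marks); the x axis is the distance in kb from the centre of the hairpin, read in its direction of transcription, and each row on the y axis is 1 hairpin. The miR-10 hairpins lie within the spans of Hoxb3 or of Hoxd3 and Hoxd4, and the miR-196 hairpins lie between Hox genes of the groups numbered 9 and 10 or upstream of Hoxb9.

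Both miR-10 strands were abundant at every age, and both miR-196 strands were close to absent. The level of miR-10a-5p was higher in each older library. It was counted 911 times in the P1 library (469 CPM, 95% exact Poisson interval 439 to 500), 1960 times in the P7 library (795 CPM, 760 to 831) and 3304 times in the P28 library (1162 CPM, 1123 to 1203). The intervals of the 3 libraries did not overlap. Among mature accessions it ranked 79th, then 62nd at P7, then 42nd at P28.

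The level of miR-10b-5p moved less and had no steady direction. It was counted 1590 times in the P1 library (818 CPM, 778 to 859), 1399 times in the P7 library (567 CPM, 538 to 598) and 1971 times in the P28 library (693 CPM, 663 to 725). It was thus highest in the P1 library and lowest in the P7 library, again with intervals that did not overlap. That P1 was above P28 held by library totals and turned under 3 other scalings, where the log2 ratio of P28 against P1 was between 0.24 and 0.45. It ranked 55th, then 74th at P7, then 59th at P28.

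The miR-196 strands together gave 3 reads in all 3 libraries. For miR-196a-5p there were 0 reads in the P1 and P7 libraries and 1 read in the P28 library. For miR-196b-5p there was 1 read in each of the P1 and P7 libraries and 0 reads in the P28 library. Counting allows up to 3 reads where none were seen, a limit of 1.54 CPM for P1, 1.22 CPM for P7 and 1.06 CPM for P28. No difference between ages was detectable for either strand at this depth, and no ratio is given. Pooled over the libraries, the pair stood at 0.414 CPM (0.0853 to 1.21). Such low counts were common in the table, in which 1049 of the 1900 mature accessions had no read and 297 had 1 to 3 reads.

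In each library, 1 miR-196 strand had 1 read and the other had none. Against the strand with 1 read, the reads of miR-10a-5p stood at a ratio of 911 at P1 (95% Clopper-Pearson interval 163 to 36022), 1960 a week later (351 to 77455) and 3304 in the P28 library (593 to 130540). For miR-10b-5p the lower ends of these intervals were 285, 251 and 353. The strand with none was miR-196a-5p at P1 and P7, where the reads of miR-10a-5p were 304 and 653 times the limit of 3 reads. These values take the count of miR-10a-5p as exact, so they are not lower ends of 95% intervals. The strands compared are 22 and 23 bases long, and an effect of length on these ratios was not tested. Small RNA libraries also recover some sequences better than others, and this was not tested. In bulk tissue, fewer cells of a type and less RNA per cell cannot be told apart.

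**Figure D2:**
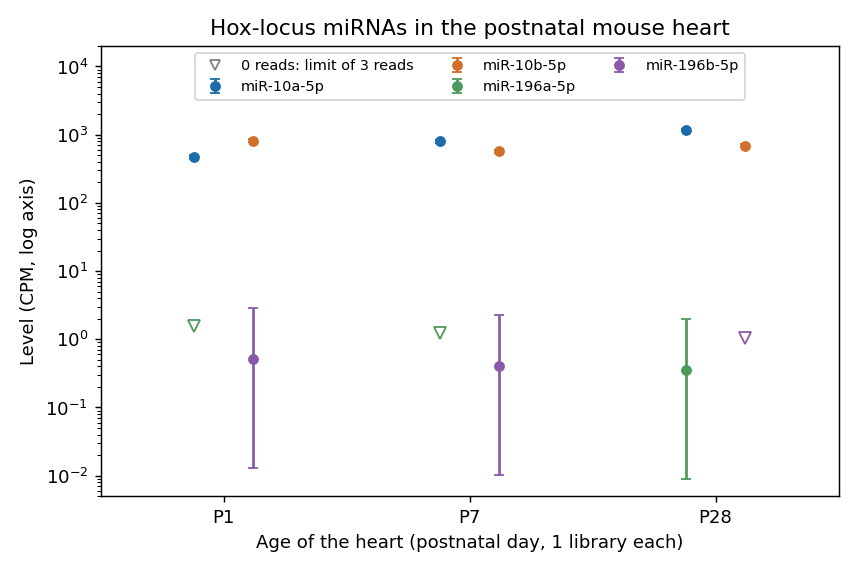
Levels of the 4 members in CPM (y axis, log scale) at P1, P7 and P28 (x axis, 1 library each); points are levels, bars are 95% exact Poisson intervals, and open triangles mark the limit of 3 reads where no read was counted. The miR-10 strands lie between 469 and 1162 CPM and the miR-196 strands that had a read lie at 0.514 CPM or less, with limits and upper interval ends up to 2.87 CPM.

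The order of the miR-10 strands was inverted between P1 and P7. Of the reads of the pair, miR-10b-5p held 63.6% in the P1 library (1590 of 2501 reads, 95% Clopper-Pearson interval 61.7 to 65.5), 41.6% in the P7 library (1399 of 3359, 40.0 to 43.3) and 37.4% in the P28 library (1971 of 5275, 36.1 to 38.7). The pair therefore went from mostly miR-10b-5p to mostly miR-10a-5p. Most of this shift lay in the first week. The ratio of miR-10a-5p to miR-10b-5p was 2.45-fold higher at P7 than at P1 (95% interval 2.20 to 2.72) and 1.20-fold higher at P28 than at P7 (1.10 to 1.31). From P1 to P28 the factor was 2.93 (2.65 to 3.23). This ratio is formed within a library, so it does not depend on how libraries are scaled against each other.

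**Figure D3:**
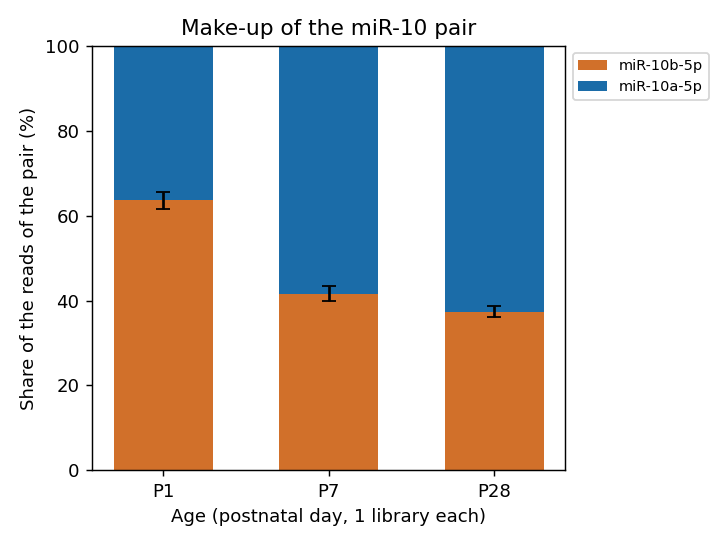
Share of the reads of the miR-10 pair (y axis, percent) held by miR-10b-5p (orange) and miR-10a-5p (blue) at each age (x axis, 1 library each), with 95% Clopper-Pearson intervals. The share of miR-10b-5p goes from 63.6% to 41.6% and then 37.4%.

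As the members share a seed, their sum was also followed. Together they stood at 1286 CPM on day 1 (1236 to 1338), 1362 CPM on day 7 (1317 to 1409) and 1856 CPM on day 28 (1806 to 1907). The sum was nearly level over the first week, at 1.06-fold (1.01 to 1.12), with miR-10a-5p higher and miR-10b-5p lower. Between P7 and P28 it was higher by 1.36-fold (1.30 to 1.42), with both members higher. With TMM scaling this factor was 2.05 and with DESeq2 size factors 2.23, while the factor for the first week was 1.09 and 1.04. In the P28 library the miR-10 seed accounted for 0.186% of the column total.

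To place these values, the 279 mature accessions that averaged 10 CPM or more over the 3 libraries were compared in the same way. Of the 4 members, 2 passed this filter, the miR-10 strands. An accession was counted as past the threshold when its CPM differed at least 2-fold, with 0.5 reads added to each count. No p-value is given, as a test on the reads of 2 libraries compares those libraries and not the ages.

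Between P1 and P7, 0 of the 2 strands were past 2-fold. Of all accessions tested, 11.1% were higher and 11.5% were lower by that much. The level of miR-10a-5p was 1.70-fold higher at P7 (95% Clopper-Pearson interval 1.57 to 1.84), a log2 ratio of 0.76, which was above that of 80.6% of the accessions. The level of miR-10b-5p gave a log2 ratio of -0.53 (-0.63 to -0.42), which was above that of 24.0%. The strands thus lay on opposite sides of the median log2 ratio of 0.03.

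Between P1 and P28, 1 of the 2 strands was past 2-fold upward, against 13.6% of all accessions higher and 42.7% lower. The level of miR-10a-5p was 2.48-fold higher (2.30 to 2.67), with a log2 ratio of 1.31 that ranked it 24th from the top of 279. The log2 ratio of miR-10b-5p was -0.24 (-0.33 to -0.14). The median accession stood at -0.74, so miR-10b-5p was lower by less than the typical accession and lay above 61.6% of them. Under TMM scaling, which sets libraries on the bulk of their entries, the log2 ratio of miR-10b-5p turned to 0.39 and that of miR-10a-5p became 1.94. The share of upward calls among all calls went from 24.2% to 46.3% with that scaling.

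Between P7 and P28, 0 of the 2 strands were past 2-fold, against 2.87% of all accessions higher and 42.7% lower. Both strands were nevertheless among the upper part of the distribution. The level of miR-10a-5p was 1.46-fold higher at P28 (1.38 to 1.55), above 91.4% of the accessions, and that of miR-10b-5p was 1.22-fold higher (1.14 to 1.31), above 86.4%. The median log2 ratio was -0.79. With TMM scaling, miR-10a-5p passed 2-fold here with a log2 ratio of 1.14, where 10.8% of all accessions were higher, and miR-10b-5p reached 0.88.

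**Figure D4:**
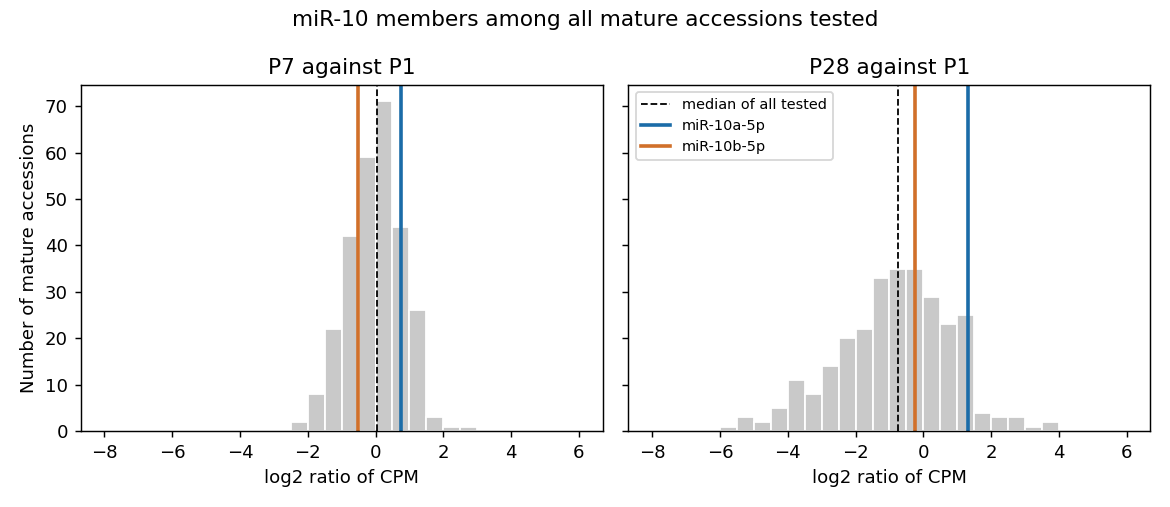
Number of mature accessions (y axis) by log2 ratio of CPM (x axis) for P7 against P1 and P28 against P1, over the 279 accessions tested; coloured lines mark the miR-10 strands and the dashed line the median. At P7 the strands flank the median, and at P28 both lie above it, with miR-10a-5p at 1.31 and miR-10b-5p at -0.24.

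The direction of miR-10a-5p did not depend on the scaling in any of the 3 comparisons, and that of miR-10b-5p did in 1. Over 5 scalings, a pseudocount of 5 reads and the use of 1 row per accession, log2 ratios of miR-10a-5p ranged from 0.71 to 0.89 at P7 against P1, from 1.31 to 2.0 at P28 against P1 and from 0.55 to 1.26 at P28 against P7. For miR-10b-5p the ranges were -0.58 to -0.40, -0.24 to 0.45 and 0.29 to 1.00. Each miR-10 strand has 1 row, so the use of 1 row per accession could not change its ratios. A pseudocount of 5 reads is small beside its counts, so only the scalings bear on the direction.

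**Figure D5:**
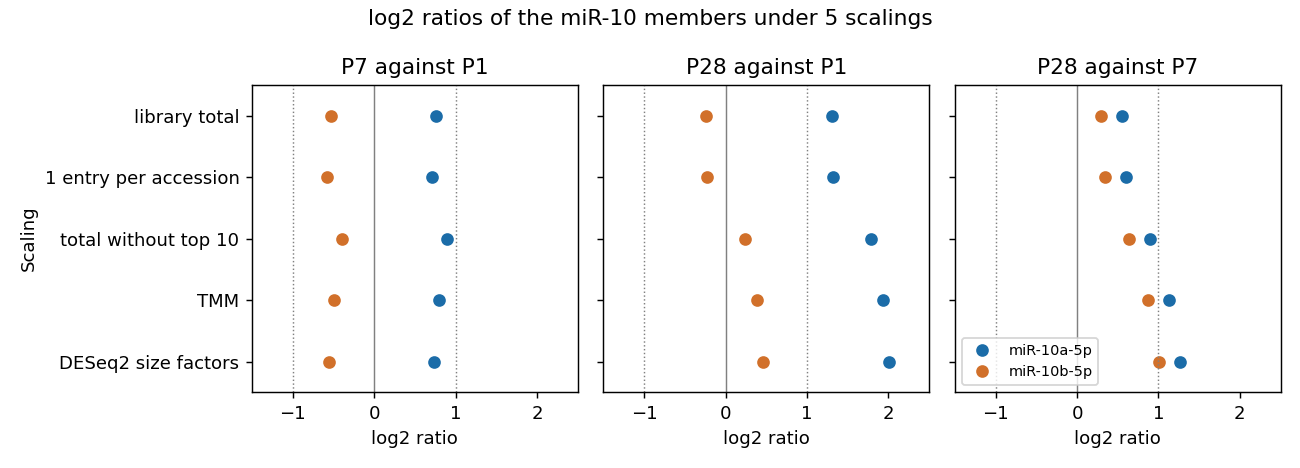
log2 ratios (x axis) of miR-10a-5p (blue) and miR-10b-5p (orange) in each of the 3 comparisons under 5 scalings (y axis); dotted lines mark 2-fold. The distance between the strands is the same under each scaling by construction, as a scaling factor moves both alike. The log2 ratio of miR-10b-5p at P28 against P1 lies between -0.24 and 0.45.

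The course of each miR-10 strand was compared with those of the 133 other mature accessions that averaged 100 CPM or more, by the distance between their log2 ratios at P7 and at P28 against P1. These are 3 libraries, so likeness over them is a description. Nearest to miR-10a-5p was MIMAT0000158, at a distance of 0.05, with 192, 316 and 479 CPM in the P1, P7 and P28 libraries. The next was MIMAT0000152, at 0.24, with 1190, 1762 and 3232 CPM. Nearest to miR-10b-5p was MIMAT0000135, at 0.23, with 1288, 1034 and 1164 CPM. The strands of the pair were 2.01 apart from each other, and 70 of the 133 accessions were nearer to miR-10a-5p than its own seed partner was.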

How the data were processed

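Small RNA libraries were prepared with a NEBNext kit from hearts at P1, P7 and P28. The authors deposited raw read counts per miRBase accession, without normalization, in 2049 rows of which 14 were stem-loop entries. Per the labels, reads were demultiplexed with bcl2fastq and aligned to mm10 with TopHat, and the methods name Bioconductor packages for counting. The placement of reads that match several loci, the use of strand and the miRBase release are not given in the sources used here. Columns were matched to ages by the age code in their names.

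Rows were added per accession and divided by the column total (CPM). Among rows with at least 300 reads, some accessions had counts within 1% of those of another accession in every library. The column totals include both, so their reads may be counted more than once. The scaling with 1 entry per accession left 11 such accessions out, none of them a member. Ratios used a pseudocount of 0.5 reads, a mean of at least 10 CPM and a 2-fold threshold. Intervals are 95% exact Poisson for levels and Clopper-Pearson for shares and ratios. The interval of the miR-10a-5p to miR-10b-5p ratio used the normal approximation on the log scale. They cover counting error only, as no molecular identifiers are stated. edgeR's quasi-likelihood test needs replicates and could not be fitted. The scripts were tested on simulated counts. TMM came from edgeR 4.0.16 and size factors from DESeq2 1.42.0 (R 4.3.3), and the rest from Python 3.11.15 with pandas 2.3.3 and scipy 1.17.1. Sequences and positions came from RefSeq GRCm38.p6 and GENCODE M21, the same assembly as mm10.

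The members and lists were chosen with earlier results of these data known. Named were the members and, for each miR-10 strand, its nearest accessions, of which at most 2 higher and 2 lower at P28 than at P1 are printed. The other arms of the hairpins, miR-615, the miR-99 and miR-100 group and marker miRNAs of heart muscle, endothelium, smooth muscle, blood, skeletal muscle, brain and liver were also listed. They were not analysed here, since no source used here pairs their names with accessions, and the labelled tissue was not checked by markers for the same reason.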

Additional observations from a re-analysis of the deposited data

How the results depend on the processing

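With 1 library per age, replicate error is unknown, and depth limits the miR-196 strands to the statement that each gave at most 1 read in a library. No paired analysis was possible because the groups hold single libraries, and no replicate could be left out. All shares of the miR-10 pair kept their values with the row with the most reads standing for an accession, since each miR-10 strand has 1 row, and so did the change of the ratio between the strands (this last alternative and those for the sum of the strands were added after seeing the data). TMM scaling moved the median log2 ratio by 0.63 at P28 against P1 and by 0.59 at P28 against P7. It gave log2 ratios at P28 against P1 of 1.94 for miR-10a-5p and 0.39 for miR-10b-5p. At P28 against P7 it gave 1.14 and 0.88, with 1 member past 2-fold, where 10.8% of all accessions were higher. DESeq2 size factors gave 2.0 and 0.45, then 1.26 and 1.00, with 2 members past 2-fold at P28 against P7, where 13.6% of all accessions were higher. The total without the 10 most abundant accessions gave 0.89 and -0.40 for the first week, 1.79 and 0.24 for P1 to P28, and 0.90 and 0.64 for P7 to P28. A ratio of 1.5 admitted 1 member as higher over the first week, where 25.1% of all accessions were higher, and a ratio of 4 left 0 for P1 to P28, where 3.23% were higher. With no filter, the miR-196 strands entered with 0 or 1 read, and 2 members were higher and 1 lower for P1 to P28, against 20.2% and 42.0% of 851 accessions, and 1 higher and 1 lower for P7 to P28, against 13.0% and 42.1%. Of the counts over all accessions, 31 stayed within 1.5 times and 35 did not, among them 69 higher under TMM and 72 under DESeq2 size factors at P28 against P1, against 38 by library totals.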

Other observations

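The Hox messenger RNAs were searched for stretches that the members could pair with. No Hox messenger RNA was measured in these libraries. The longest annotated 3′ untranslated region of each Hox gene (GENCODE M21, sense strand) was read in windows as long as the miRNA, without gaps. The best windows of the abundant miR-10 strands paired 14 (miR-10a-5p) and 15 (miR-10b-5p) of 23 bases. Full matches to the miR-10 seed lay in 4 of 39 Hox genes (10.3%), against 12.1% of all genes. For the miR-196 seed these were 9 of 39 (23.1%), against 5.93%. Among the windows reported here, that of miR-196a-5p in Hoxb8, a transcription factor gene of the trunk, is shown because 21 of its 22 bases pair (A with U and G with C only). Capitals mark the paired bases, and the site is written as the messenger RNA in DNA letters.
Hoxb8: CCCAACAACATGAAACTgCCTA
It lies at chr11:96284888-96284909 on the plus strand (GRCm38), at bases 421 to 442 of an untranslated region of 848 bases. The base not counted as paired is a G that faces the U at position 5 of miR-196a-5p, counted from its 5′ end, within the seed. Pairs of G with U were left out of the count, so this position is not shown to be unpaired. The strand miR-196b-5p paired with 20 bases of the same window. A match is a description, and whether the site is in use in these hearts was not tested.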
